A study of Mus musculus with 12 samples.

Results

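The 6 metabotropic glutamate receptor genes Grm2, Grm3, Grm4, Grm5, Grm7 and Grm8, were followed through 12 sequencing libraries of mouse brain. They were taken by name from the table of counts on coding sequence (CDS), where they are 6 of 20504 entries, and the list was drawn up with earlier results of these data known. All 6 had enough counts to be tested in each of the 5 main comparisons.

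The study sequenced ribosome footprints, the stretches of mRNA shielded by translating ribosomes, with a ligation-free protocol beside poly(A)-selected RNA-Seq of the same tissue. It asked how strongly each mRNA is translated in the brain, which mRNAs sit on the ribosomes of excitatory neurons, and what an inhibitor of mTOR changes. Brain tissue came from 6 adult mice, 2 per group, and the study's methods give an age of 3 months and, for the drug experiment, the frontal lobe.

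All 6 mice, controls included, carried both Camk2a-cre and RiboTag. In these animals the Camk2a promoter drives Cre in excitatory neurons of the forebrain, and Cre switches on a copy of the ribosomal protein Rpl22 with an HA tag. Mice A and B are labelled Untreated and received the vehicle alone according to the study's methods. The mTOR kinase inhibitor AZD-8055 was given by mouth to mice C and D at 100 mg/kg, and their tissue was taken 1 h later. Each of these 4 mice gave a footprint library and an RNA-Seq library of homogenate. Mice E and F are also labelled Untreated, and each gave an RNA-Seq library of homogenate, called input, and one of RNA that came down with HA-tagged ribosomes, called IP. The tag is carried by cells in which the promoter was active, whereas homogenate and footprints hold all cell types, and markers of untagged cells remained in the IP at lower levels, such as oligodendrocyte markers at a summed 463 CPM on exons beside 3499 to 3761 in input. In such bulk samples, fewer cells of a type and less RNA per cell cannot be told apart.

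Metabotropic glutamate receptors are G protein-coupled receptors that answer the transmitter glutamate and tune excitability and release rather than carry fast current. Group I, here Grm5, couples to Gq and phospholipase C and sits largely at the edge of the postsynaptic membrane, where Homer proteins hold it. Group II, Grm2 and Grm3, and group III, Grm4, Grm7 and Grm8, couple to Gi/o proteins and restrain adenylyl cyclase and transmitter release. Grm3 is also a well known astrocyte receptor, and Grm4 is best known from cerebellar granule cells.

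The genes differ widely in size in RefSeq's annotation of GRCm38.p6, the assembly known as mm10, a build named in the submitters' processing notes. Grm2 spans 11.6 kb at chr9:106644534-106656109, and Grm3 spans 240 kb at chr5:9485236-9725352. Grm5 lies at chr7:87583981-88135063. Grm4 lies at chr17:27422387-27513826, Grm7 at chr6:110645349-111567230 and Grm8 at chr6:27275121-28135146. These spans include introns. No coding lengths were at hand, so levels were never compared between genes, and genes were set side by side only as ratios in which length cancels.

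The libraries held 3503873 to 9259938 CDS counts for footprints and 9309496 to 15585831 for RNA-Seq, and the RNA-Seq libraries held 16796999 to 27878212 counts on exons. Replicates differed by 2.61 to 17.4 times counting error (chi-square per degree of freedom), so none was a repeat of another. The tissue label was checked against forebrain excitatory markers, which summed to 6691 to 7330 CPM (counts scaled to the library total) on exons in input, while 4 cerebellar markers summed to 7.13 to 8.72. In the homogenates of mice A and B these sums were 5870 to 5926 and 15.8 to 34.4. In those of mice C and D they were 5982 to 6291 and 8.29 to 15.7. After AZD-8055, all 6 mRNAs with a 5′ terminal oligopyrimidine start that were used as a check fell in footprints, by a median of −1.31 on the log2 scale.

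The receptors fell into 3 tiers of translation efficiency (TE), the ratio of footprints to RNA-Seq on the CDS. Footprints were rich relative to mRNA for Grm5 and Grm3, close to the typical gene for Grm7, Grm8 and Grm2, and scarce for Grm4. In the vehicle-treated mice the TE of Grm5 was 5.77-fold that of Grm4. Tested with edgeR's quasi-likelihood test and Benjamini-Hochberg adjustment at an adjusted p under 0.05 and a fold change over 2, Grm5 and Grm3 were called high and Grm4 low. That is 2 of 6 receptors called up, where 13.2% of 11797 tested genes were called up, and 1 of 6 called down, where 17.6% were. In either direction 3 of 6 were called beside 30.8% of genes, and without the fold limit 5 of 6 passed beside 73.8%.

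Grm5, the postsynaptic group I receptor, had 2279, 1112, 920 and 1308 footprint counts on its CDS in mice A, B, C and D, and 959, 1038, 1115 and 1063 RNA-Seq counts. Scaled by size factors, its log2 TE was 1.40, 1.29, 1.33 and 1.5 in these mice. The 4 mice lay close together, within 0.21 of each other. The mean of the vehicle-treated mice was 1.34 ± 0.077 (SD, n = 2), above 93.7% of 10882 genes, and the fitted log2 ratio was 1.39 (SE 0.075, adjusted p = 1.5e-10).

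Grm3, the group II receptor also found on astrocytes, had 1980, 960, 770 and 972 footprint counts and 763, 1041, 957 and 900 RNA-Seq counts in mice A to D. Its log2 TE was 1.52, 1.07, 1.30 and 1.31. Mouse A was highest and mouse B lowest, so the vehicle-treated mice spanned the whole range and gave 1.30 ± 0.32 (SD, n = 2). The fitted log2 ratio was 1.33 (SE 0.10, adjusted p = 7.6e-09), and the level stood above 93.2% of genes.

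Grm2, the other group II receptor, did not share this high TE. Its log2 TE was −0.25 and −0.53 in mice A and B and −0.13 and −0.0098 in mice C and D, below 0 in all 4. The fitted log2 ratio in the vehicle-treated mice was −0.33 (SE 0.10, adjusted p = 0.0083), which passed the adjusted threshold but not the fold limit. Without mouse B it was −0.23 and no longer passed (adjusted p = 0.16).

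Grm4 stood apart from the other 5 receptors. It had 150, 86, 71 and 91 footprint counts against 376, 449, 506 and 427 RNA-Seq counts in mice A to D, and its log2 TE was −1.18, −1.20, −1.22 and −1.03. Every mouse was more than 0.6 below its own Grm2. The vehicle-treated mean was −1.19 ± 0.013 (SD, n = 2), above only 11.7% of genes, and the fitted log2 ratio was −1.16 (SE 0.14, adjusted p = 2.4e-06).

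The other group III receptors, Grm7 and Grm8, sit mostly on presynaptic terminals and lay near the middle. Grm7 had a log2 TE of 0.43, 0.27, 0.55 and 0.43 in mice A to D, above 0 in each, and a fitted ratio of 0.43 (SE 0.13, adjusted p = 0.0078) that did not reach the fold limit. Without mouse A its adjusted p was 0.065. Grm8 had −0.13, 0.36, −0.17 and 0.14, with 2 mice on each side of 0. Its footprint counts were 220, 116, 70 and 123, the thinnest beside those of Grm4, and its fitted ratio of 0.14 (SE 0.16, adjusted p = 0.44) did not pass.

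Ordered by their means over 4 mice, Grm5, Grm3, Grm7, Grm8, Grm2 and Grm4, the ranges overlapped between Grm5 and Grm3, between Grm7 and Grm8, and between Grm8 and Grm2. They did not overlap between Grm3 and Grm7, which differed by 0.75 to 1.09 within a mouse, nor between Grm2 and Grm4, which differed by 0.66 to 1.10. These steps set apart the 3 tiers, but the middle tier was not uniform. In it Grm7 (0.27 to 0.55) and Grm2 (−0.53 to −0.0098) did not overlap, though neither reached the fold limit. The tiers cut across the receptor groups, since Grm2 and Grm3 of group II lay on either side of the median gene. Footprint and RNA-Seq libraries were made by unlike protocols, so protocol and translation cannot be told apart in a gene's TE.

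**Figure D1:**
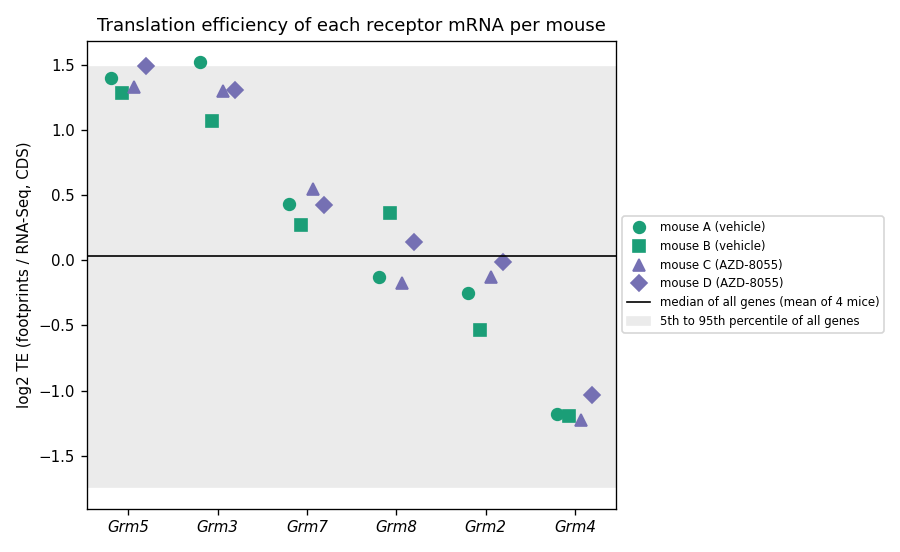
Log2 TE (vertical axis) of each receptor mRNA in mice A and B (vehicle, green) and C and D (AZD-8055, purple), 1 point per mouse, with the median and the 5th to 95th percentile of all genes averaged over 4 mice. Grm5 and Grm3 lie between 1.07 and 1.52, and Grm4 lies between −1.22 and −1.03.

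On CDS counts the levels of the receptors in homogenate RNA varied between 1.24-fold (Grm7) and 1.60-fold (Grm2) from the lowest to the highest library. Over the 6 homogenate libraries of mice A to F, Grm7 was the steadiest receptor on the CDS. Its lowest, median and highest levels were 60.2, 69.7 and 74.6 CPM, with a coefficient of variation of 8.16%. Grm4 followed with 38.2, 42.7 and 50.2 CPM (10.8%). The median gene varied by 11.4%.

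Grm8 ran from 20.8 CPM over a median of 23.9 to 29.3 (13.8%), and Grm3 from 81.2 over 100.1 to 121.8 (15.8%), with the inputs of mice E and F highest at 111.1 and 121.8. Grm5 ran from 99.8 over 107.8 to 145.5 CPM (16.5%). Both of its highest values, 145.5 and 135.2, were likewise the inputs of mice E and F. On exons Grm5 varied less, with 250.9 and 249.7 CPM in these inputs and 226.4 to 238.9 in the homogenates of A to D. On the CDS Grm2 was the most variable receptor, from 60.0 over 63.4 to 95.8 CPM (19.9%). Its highest values, 73.6 and 95.8, again came from mice E and F. Mice E and F were not part of the drug experiment, though they share the label Untreated with A and B. Their inputs also differed from the homogenates of A to D in marker sums on exons. Striatal markers summed to 904 to 980 CPM, beside 1427 to 1431 in A and B and 1631 to 1730 in C and D. Excitatory markers summed to 6691 to 7330 CPM, beside 5870 to 5926 and 5982 to 6291. The part of tissue make-up, experiment or animal in these levels cannot be told apart.

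**Figure D2:**
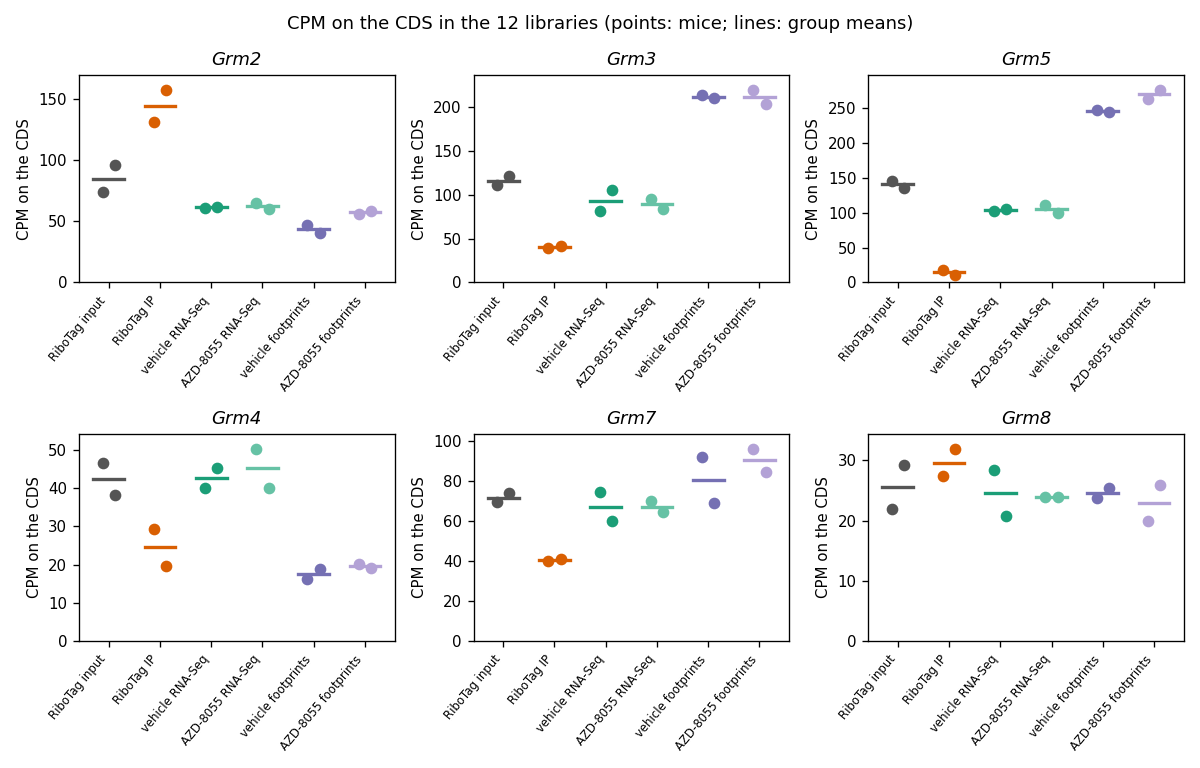
CPM on the CDS (linear vertical axes from 0) of each receptor in the 6 groups of libraries, 1 point per mouse with a line at the group mean. Grm2 is highest in the IP at 130.8 and 157.0 CPM, and Grm5 is lowest there at 18.4 and 11.3 CPM; heights are to be read within a panel.

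RNA on tagged ribosomes of excitatory neurons separated the 2 group II receptors. In both mice the IP held about 2-fold more Grm2 than the input and less Grm3, and Grm4, Grm5 and Grm8 moved by less than the fold limit on exon counts. Grm3 alone was called on exons under the rule used for TE, 1 of 6 receptors called down where 21.8% of 13254 tested genes were called down, and 0 of 6 called up where 11.7% were (33.4% in either direction). Without the fold limit 5 of 6 passed, all but Grm7, beside 69.4% of genes. On CDS counts 3 of 6 were called, Grm2 up (20.4% of 12211 genes) and Grm3 and Grm5 down (26.1%).

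Grm2, a receptor that restrains glutamate release, had 1198 and 1932 exon counts in the inputs of mice E and F and 1811 and 2429 in their IPs, or 54.8 and 69.3 CPM against 92.0 and 109.2. Both IPs lay above both inputs. After scaling by size factors its log2 ratios of IP to input were 1.15 (mouse E) and 1.04 (mouse F), a mean of 1.09 ± 0.075 (SD, n = 2), and the all-gene medians on this scale were 0.099 and 0.068. The fitted log2 change was 0.97 (SE 0.14, adjusted p = 0.0012), just under the limit of 1. Leaving out 1 library gave 1.12 (input of mouse F or IP of mouse E), 0.81 (input of mouse E) and 0.88 (IP of mouse F). The change was 1.00 and called with DESeq2, 0.98 and not called with the mouse as a block, and 0.69 and not called with total-count scaling. With CDS counts it was 1.20 (SE 0.16, adjusted p = 1.5e-04).

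Grm3 had 1613 and 2209 exon counts in input and 473 and 538 in IP, or 73.7 and 79.2 CPM against 24.0 and 24.2. The groups did not overlap, and the log2 ratios were −1.22 and −1.33. The fitted log2 change was −1.39 (SE 0.099, adjusted p = 1.0e-04) on exons and −1.08 (SE 0.12, adjusted p = 5.7e-05) on the CDS. Astrocyte markers moved the same way, with 8 of 9 called down, a median log2 change of −3.01 and a summed 5209 to 5404 CPM in input against 685.4 to 793.4 in IP, none of the 9 at 0. Their part in the fall of Grm3 was not tested.

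Grm4 had 604 and 618 exon counts in input and 283 and 200 in IP, with log2 ratios of −0.54 and −0.92. Both IPs lay below both inputs in CPM, but the mice differed among themselves. The fitted log2 change of −0.82 (SE 0.25, adjusted p = 0.024) was under the fold limit. With 1 library left out it ran from −0.48 (without the IP of mouse F) to −1.16 (without the IP of mouse E). With the mouse as a block, which keeps IP and input paired, it was −0.84 (adjusted p = 1.3e-08), also under the fold limit. The block fit borrows its variance across genes, so its p-values do not measure the spread of the 2 mice. Total-count scaling gave −1.09 and a call (adjusted p = 0.0066). With CDS counts the change was −0.35 (SE 0.20, adjusted p = 0.15), and −0.37 with the block (adjusted p = 0.015). Cerebellar markers went the other way and summed to 7.13 to 8.72 CPM in input and 12.3 to 16.1 CPM in IP. Of these 4 markers 1 had enough counts to test, and it was called up (1.33), where 11.7% of genes were called up.

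On exons Grm8 passed the adjusted threshold and Grm7 did not. Grm8 had 367 and 617 exon counts in input and 404 and 566 in IP, with log2 ratios of 0.69 and 0.59 and a fitted change of 0.51 (SE 0.17, adjusted p = 0.035), under the fold limit. With 1 library left out this change ran from 0.33 (without the input of mouse E) to 0.70 (without the input of mouse F). With total-count scaling it was 0.24 and did not pass (adjusted p = 0.27). With the mouse as a block, which keeps IP and input paired, it was 0.52 (adjusted p = 2.0e-05). As for Grm4, the p-value with the block does not measure the spread of the 2 mice. Grm7 had 1284 and 1706 counts in input and 1049 and 1274 in IP, and its fitted change of 0.16 (SE 0.094, adjusted p = 0.18) did not pass. Its sign turned with total-count scaling (−0.12) and with CDS counts (−0.38, SE 0.12, adjusted p = 0.020), so no direction is given for it.

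In order of log2 ratio on exons, Grm2, Grm8, Grm7, Grm5, Grm4 and Grm3 each ranked in the same place in both mice, and no neighbouring ranges overlapped. With CDS counts Grm5 moved from the fourth place to the lowest. Total-count scaling shifted the median of all genes from −0.03 to −0.31 and split the calls 774 up and 3653 down, where TMM scaling gave 1545 up and 2888 down.

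**Figure D3:**
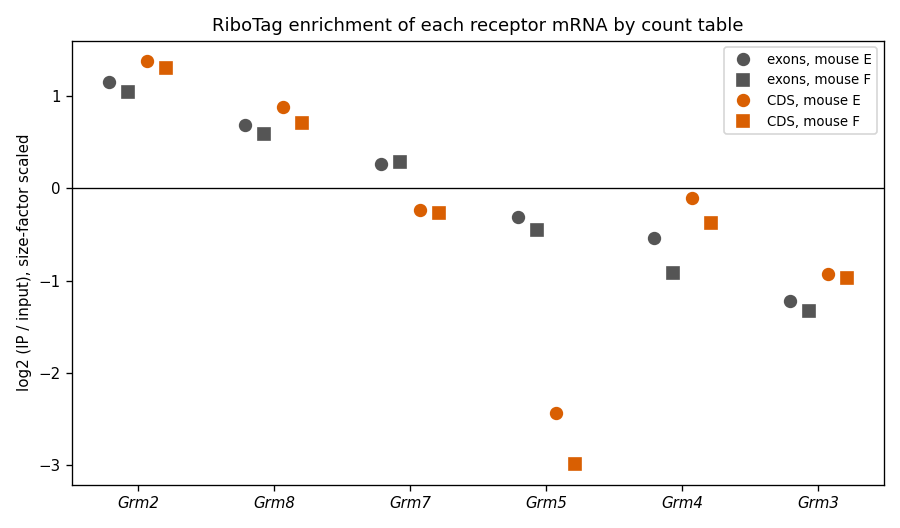
Log2 ratio of IP to input, scaled by size factors (vertical axis), for each receptor in mice E and F, with exon counts in grey and CDS counts in orange. Grm5 lies at −0.32 and −0.45 on exons and at −2.43 and −2.99 on the CDS, and Grm7 changes sides of 0.

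The size of the fall of Grm5 depended on which of its bases were counted. On exons Grm5 had 5490 and 6962 counts in input and 3011 and 3110 in IP, a fitted log2 change of −0.50 (SE 0.094, adjusted p = 0.0037). On the CDS it had 1830 and 2107 counts in input and only 171 and 113 in IP, a change of −2.81 (SE 0.20, adjusted p = 5.2e-06). Counts on exons outside the CDS changed by −0.51 (SE 0.11, adjusted p = 0.0039). Each kind of count was scaled on its own, and the median gene also shifted toward counts outside the CDS in IP. The changes are thus relative to unlike baselines and cannot be set against each other as parts of the same fall.

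Most Grm5 exon counts were outside the CDS in every RNA-Seq library, and in IP nearly all were. The inputs of mice E and F had shares of 66.7% (95% Wilson interval 65.4 to 67.9) and 69.7% (68.6 to 70.8). In the IP it was 94.3% (93.4 to 95.1) and 96.4% (95.6 to 97.0). The 4 homogenates of mice A to D lay between, at 72.3% to 76.4%, and the intervals cover counting error only.

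The shift was large beside other genes. The median share outside the CDS over all genes rose from 32.2% and 33.2% in input to 45.8% and 49.5% in IP. The log2 CDS share of Grm5 changed by −2.55 in mouse E, as low as or lower than which only 72 of 12141 genes lay, and by −3.06 in mouse F, with 40 of 12152. The medians of all genes were −0.28 and −0.35.

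Grm7 shifted in the same direction by less. Its share outside the CDS was 31.9% to 38.8% over the 6 homogenate libraries and 64.2% and 67.8% in IP, with a log2 CDS share change of −0.93 and −1.07. In this 2010 of 12141 genes (mouse E) and 2141 of 12152 genes (mouse F) were as low or lower, so the shift of Grm7 was not unusual among genes. Counts outside the CDS alone gave Grm7 a log2 change of 0.70 (SE 0.12, adjusted p = 0.0013), opposite in sign to its CDS counts. Here too each kind of count had its own scaling.

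Grm2 went from at most 24.97% in homogenate to 32.7% and 35.5% in IP, Grm3 from at most 17.3% to 21.6% and 23.4%, and Grm8 from at most 28.5% to 36.9% and 43.8%. These shifts were near those of the median gene. Grm4 held 3.15% to 4.26% of its exon counts outside the CDS in homogenate and 3.18% and 2.00% in IP, and it was the only receptor whose share did not rise in both IPs. The median gene moved the same way in IP, and the part of that general shift in the values of Grm5 and Grm7 was not tested.

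**Figure D4:**
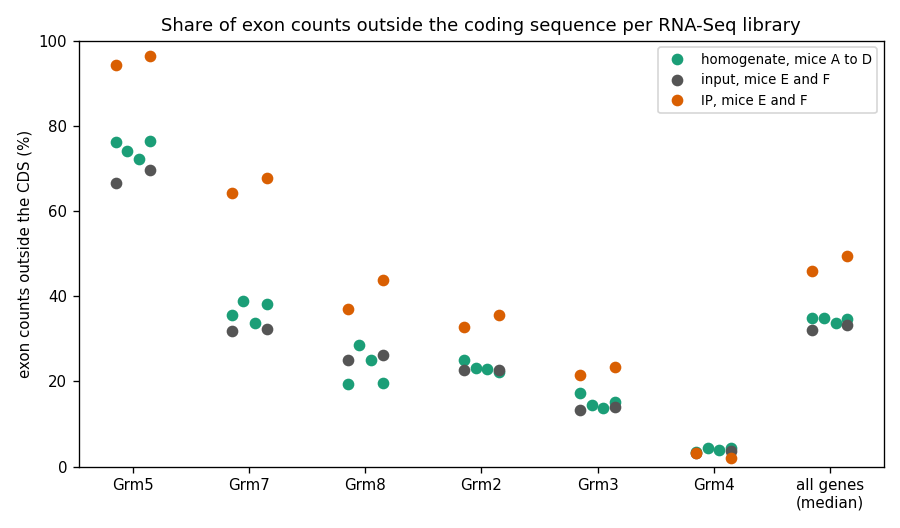
Percent of exon counts that lie outside the CDS (vertical axis, 0 to 100) for each receptor and for the median gene in the 8 RNA-Seq libraries, 1 point per library, with IP in orange. Grm5 rises from 66.7 and 69.7 in input to 94.3 and 96.4 in IP, and Grm4 stays under 5 throughout.

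AZD-8055 at 1 h left the receptors without a called change. With edgeR's quasi-likelihood test, 0 of 6 were called in RNA (background 0.148% of 12182 genes), 0 of 6 in footprints (1.03% of 10695) and 0 of 6 in TE (0.305% of 11797, or 0.865% without the fold limit), and DESeq2 called none either, although it gave no adjusted p for Grm4 and Grm8 in footprints. At an unadjusted p under 0.05, 1 of 6 passed in footprints, where 12.8% of genes did, and none in RNA (8.24%) or TE (6.75%).

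Grm2 was the receptor with that unadjusted p. Its size-factor-scaled footprints were 355.1 and 289.2 in mice A and B and 420.8 and 415.0 in mice C and D. The treated mice lay above the vehicle-treated ones, while its scaled RNA, 422.7 and 418.4 against 459.8 and 417.8, overlapped. The footprint log2 change was 0.37 (SE 0.12, 95% interval 0.11 to 0.62, adjusted p = 0.24, and 0.075 to 0.67 over the alternatives), and its change in TE was 0.30 (interval −0.0031 to 0.61, adjusted p = 0.74).

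Grm5 and Grm4 footprints also did not overlap between groups. Grm5 had 1869 and 1738 scaled footprints in mice A and B and 1965 and 1960 in mice C and D, a log2 change of 0.12 (interval −0.038 to 0.28, adjusted p = 0.50). Grm4 had 123.0 and 134.4 against 151.7 and 136.3, a change of 0.17 (interval −0.20 to 0.54, adjusted p = 0.70). Non-overlap in 3 of 6 receptors is to be read against 40.2% of all genes, and in 1 of 6 for TE against 37.2%. In RNA no receptor was without overlap, where 39.4% of genes were.

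For Grm3, Grm7 and Grm8 the footprint changes were −0.013, 0.13 and −0.092, with the widest interval that of Grm8, from −0.46 to 0.27. RNA changes of the 6 receptors ran from −0.049 for Grm3 to 0.085 for Grm4. The 95% intervals of the TE change reached down to −0.58 for Grm8 and less far for the other 5, and so leave out the median TE change of the check mRNAs, −1.32.

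**Figure D5:**
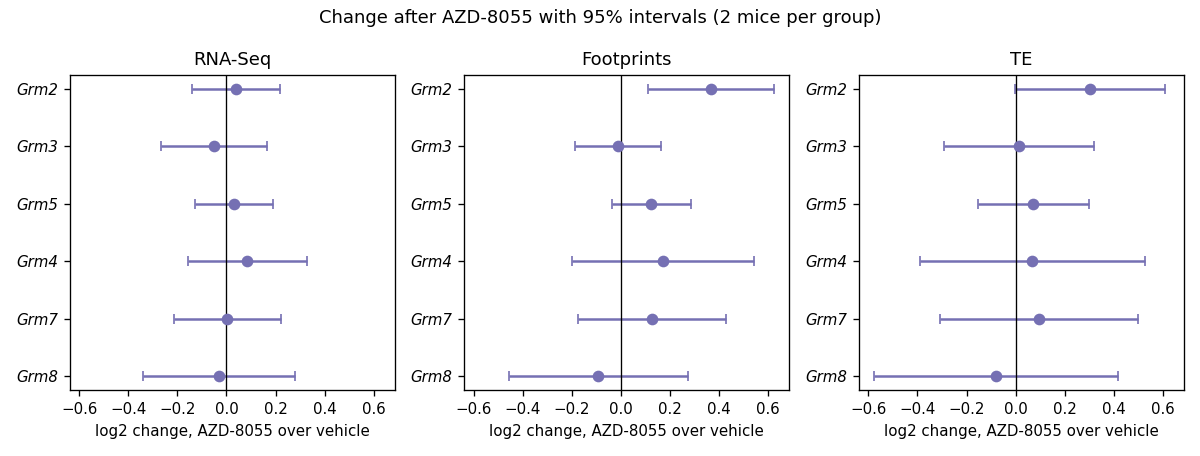
Log2 change after AZD-8055 over vehicle (horizontal axes) of each receptor in RNA-Seq, footprints and TE, as points with 95% intervals from edgeR, 2 mice per group. Only the footprint interval of Grm2, 0.11 to 0.62, leaves out 0.

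Pathway genes are given by counts beside the share of all genes called, which was 13.2% up and 17.6% down in TE and 11.7% up and 21.8% down in IP on exons. Of 14 Gq and phospholipase C pathway genes below group I, 6 were called up and 2 down in TE, with a median log2 TE of 0.79 beside −0.0096 for all genes. Prkca, a protein kinase C, had 2.06, the cation channel gene Trpc5 1.99, the G protein subunit gene Gnaq 1.80, and Dgkb, a diacylglycerol kinase, 1.63. Low values were those of Dgkz, another diacylglycerol kinase, at −2.18, and of the phospholipase C gene Plcb3 at −1.08. In IP against input 0 were called up and 4 down, with a median of −0.14 beside −0.034 for all genes, namely Plcb3 (−2.98), Trpc5 (−2.12), Plcb4 (−1.09) and Trpc1 (−1.09). On CDS counts 7 of 14 were called down, beside 26.1% of all genes.

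Of 21 genes of the Gi/o and adenylyl cyclase pathway below groups II and III, 4 were called up and 1 down in TE. Of all genes 13.2% were called up and 17.6% down, and the median of the list was 0.36. Rgs4, which speeds the shut-off of G proteins, had 1.97, the protein kinase A subunit gene Prkacb 1.62, Gng2 1.29 and Gnai1 1.10, while the adenylyl cyclase gene Adcy5 had −1.72. In IP 3 were called up (11.7% of all genes), all beta or gamma subunits of G proteins (Gng3 1.40, Gnb2 1.38, Gnb5 1.01). Called down were 2 (21.8% of all genes), both adenylyl cyclases (Adcy9 −1.44, Adcy3 −1.17), and the median was 0.26.

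Of 22 genes listed as scaffolds and partners, direct or indirect, 0 were called up in TE (13.2% of all genes) and 6 down (17.6%). Their median was −0.47. The postsynaptic scaffold genes Shank1, Shank3 and Shank2 had −3.16, −2.26 and −1.52, and Adrbk1, a receptor kinase, had −1.36. In IP 2 were called up (11.7% of all genes), Cyth2 (1.40) and its partner Grasp (1.36). Called down were 7 (21.8% of all genes), led by Slc9a3r1 (−3.04), Homer3 (−2.42), Shank2 (−1.75) and Elfn1 (−1.73), and the median was −0.59. After AZD-8055 no gene of these 3 lists was called in RNA, footprints or TE, where 0.148%, 1.03% and 0.305% of all genes were.

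The genes whose CDS levels ran most like each receptor over the 12 libraries differed from receptor to receptor. By Pearson r of log2 CPM among 12012 genes, these were Slk (0.998) and Strn (0.997) for Grm5, Pcdhb16 (0.996) and Eif5a2 (0.996) for Grm3, and St3gal5 (0.977) and Ccdc58 (0.973) for Grm2. For group III they were Zc3h18 (0.987) and Mfhas1 (0.987) for Grm4, Robo2 (0.974) and Ahr (0.969) for Grm7, and Lyrm1 (0.880) and 4930453N24Rik (0.823) for Grm8. Among the receptors, Grm5 ran with Grm3 (0.951) and Grm7 (0.937) and against Grm2 (−0.889), and Grm4 ran with none. The 12 points share library types and mice, and these values are a description.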

How the data were processed

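Ribosome footprints (4 libraries) and poly(A)-selected RNA-Seq (8 libraries) of 6 mice were analysed. After the removal of rRNA reads by Bowtie2, the authors mapped reads by TopHat2 and assigned them to genes by HTSeq in its strict intersection mode (tools and mm10 per the submitters' processing notes and the study's methods). The deposited values are raw counts per gene, on CDS in 12 libraries and on exons in the 8 of RNA-Seq. Reads that cross a CDS end can be lost by that mode, and 457 genes had more CDS than exon counts in some library.

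Tests used edgeR 4.0.16 in R 4.3.3 (TMM, quasi-likelihood F-test, Benjamini-Hochberg over all genes that averaged 37 or more counts a library), at an adjusted p under 0.05, and for IP and TE a fold over 2. TE came from a model of 8 libraries with library type, treatment and their interaction. Values per mouse were divided by DESeq2 1.42.0 size factors. For correlations 0.5 was added to CPM. Scripts ran in Python 3.11.15 with pandas 2.3.3 and were tested on simulated data. The receptors and gene lists were chosen with earlier results of these data known. The 6 receptors are all named; of each pathway list, up to 4 called genes per direction with the largest change, and the 2 genes most alike per receptor. Alternatives were DESeq2, other scalings, no filter, the other count table, no fold limit, the mouse as a block and each library left out.

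Libraries with the same mouse letter come from 1 animal. Deviations correlated at 0.246 (A and B), 0.198 (C and D) and 0.557 (E and F) across genes.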

Additional observations from a re-analysis of the deposited data

How the results depend on the processing

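TE calls of the receptors were the same under DESeq2, RLE and total-count scaling, no filter, the mouse as a block and each mouse left out, and AZD-8055 gave no receptor call under any alternative run. Without a fold limit, 5 of 6 receptors passed in TE and 5 in IP, and the genes called were 8703 in TE (3638 with it), 9194 in IP (4433) and 102 in TE change (36). In IP, 2 receptors were called with DESeq2, RLE factors, total counts, no filter or exon counts outside the CDS. They were Grm3 and Grm4 with total counts, and Grm2 and Grm3 in the rest of these settings. With CDS counts 3 were called, Grm2, Grm3 and Grm5, with or without the block. Of 13254 genes tested, DESeq2 called 4440, RLE factors 4481 and total counts 4427. No filter called 5564 of 18997 genes, and CDS counts 5680 of 12211. Counts outside the CDS, chosen after seeing the data, called 2433 of 9947 genes and left Grm4 untested. With a library left out, the change ran from 0.81 to 1.12 for Grm2 and from −1.16 to −0.48 for Grm4. Total-count scaling moved the all-gene median of TE to −0.15. Without the filter 5787 genes were called in TE, 78 in AZD-8055 RNA (18 with it), 264 in footprints (110) and 57 in TE change; DESeq2 called 28 in RNA and total counts 29. Leaving out 1 library gave 13 to 36 genes in RNA (33 without mouse A, 36 without D) and 64 to 837 in footprints (64 without B, 265 without D, 837 without C), and the lone sample left in a group was assumed to vary like the others. With the mouse as a block 4463 genes were called in IP, 3623 in TE and 43 in TE change, and no receptor call changed.

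Signs turned only for values that were not called. Grm7 in IP had −0.12 with total counts and −0.38 with CDS counts, with and without the block. With 1 mouse or library left out, Grm8 TE ran from −0.11 (without mouse B) to 0.43. In the same way AZD-8055 RNA changes ran from −0.023 to 0.098 for Grm2, −0.21 to 0.14 for Grm3, −0.085 to 0.24 for Grm4, −0.046 to 0.10 for Grm5, −0.15 to 0.18 for Grm7 and −0.24 to 0.22 for Grm8. Footprint changes ran from −0.077 to 0.051 for Grm3, −0.049 to 0.38 for Grm7 and −0.29 to 0.058 for Grm8, and TE changes from −0.20 to 0.20 for Grm3, −0.027 to 0.20 for Grm4, −0.025 to 0.18 for Grm5 and −0.37 to 0.17 for Grm8. Total counts gave Grm7 RNA −0.0023 and no filter gave Grm3 TE change −0.030. The causes were not tested. The footprint libraries held 70 to 433 counts for Grm2, Grm4 and Grm8, and the smallest change detectable at that depth was not tested.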

Other observations

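The other marker lists gave these values in IP against input on exons, beside an all-gene median log2 change of −0.034, 11.7% of genes called up and 21.8% called down. Excitatory markers had 2 of 6 called up and a median of 0.84. Interneuron markers had 8 of 8 called down and a median of −2.21, and myelinating oligodendrocyte (6 of 6, −2.81), microglia (6 of 6, −3.71), endothelial (4 of 4, −3.75) and oligodendrocyte precursor markers (3 of 4, −3.40) were also called down. Striatal markers had 2 of 6 called down and a median of −0.50. After AZD-8055, 1 of 6 striatal markers was called up in RNA (0.148% of all genes were called), with a median of 0.31, while none of the other marker lists had a called gene in RNA, footprints or TE. The 1 cerebellar marker tested had 1.33 in IP and was called up. The 6 check mRNAs with a terminal oligopyrimidine start had 0 called in RNA after AZD-8055, and in IP 0 were called, with a median of 0.44.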
